A study of Mus musculus with 18 samples.

Results

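The 35 genes described here make, move and sense cholesterol, and they were chosen by symbol from the deposited count table of 51912 genes. They comprise 7 enzymes from acetyl-CoA to farnesyl diphosphate (mevalonate enzymes), 11 enzymes from squalene synthesis onward (sterol enzymes), 5 genes of the SREBP system, 2 LXR genes, 7 genes of sterol transport and efflux and 3 fatty acid enzymes that SREBP and LXR are known to regulate. All 35 were in the table once and passed the minimum of 10 read pairs over the 18 libraries, as did 24495 genes in all. They were measured in primary cortical astrocyte cultures of newborn Aldh1l1-EGFP/Rpl10a mice, in which a green fluorescent tag on a ribosomal protein is expressed from astrocyte regulatory sequence of *Aldh1l1*. In translating ribosome affinity purification (TRAP), the tagged ribosomes are pulled down (IP), while input is RNA of the same lysate before the pull-down. The IP libraries came from 6 control dishes and 6 dishes given 50 mM ethanol for 24 h, and the input libraries from replicates 4 to 6 of each treatment, 3 control and 3 ethanol. All cultures carried the transgene, were without serum during the exposure and mixed the sexes, and each replicate was a separate dish, with nothing said of separate litters, so that p-values measure the spread between dishes.

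Cells build cholesterol from acetyl-CoA through mevalonate and squalene. When sterols run low in the endoplasmic reticulum, SCAP carries the precursors of the SREBP transcription factors to the Golgi, where they are cut and set free to switch on these enzymes. INSIG proteins hold SCAP back when sterols are plentiful, and the LXR receptors, which sense oxidized sterols, switch on the ABC transporters that load cholesterol onto apolipoprotein E. In the brain, astrocytes are known as a main source of cholesterol and of apolipoprotein E for neurons.

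The libraries held 74239854 to 132810705 read pairs assigned to genes. Values are given below in CPM, the counts of a gene relative to the library total, scaled between libraries with the TMM factors of edgeR. Of the 10 astrocyte markers, 9 averaged at least 5 CPM in every group, and *Aldh1l1* itself averaged 189 CPM in input and 383 CPM in IP control libraries. Microglial markers summed to 98.5 to 104 CPM in input control and to 17.4 to 18.7 CPM in IP control libraries, and their levels were low but not at 0. In input control, neuronal markers summed to 111 to 114 CPM and oligodendrocyte lineage markers to 143 to 149.4 CPM, led by *Stmn2* and *Cnp*. The endothelial marker *Cldn5* was at 0 read pairs in every library, while *Pecam1*, also an endothelial marker, averaged 0.308 CPM in input control. *Acta2*, a marker of contractile cells, averaged 1186 CPM in input control. A lower level in these bulk cultures cannot be told apart from fewer cells of a type.

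The 35 genes spanned a wide range of levels in control cultures. The transport gene *Apoe* was highest, and the mevalonate enzymes *Idi1* and *Fdps* were lowest. Per kb of the longest transcript, *Apoe*, the main lipid-carrying apolipoprotein of the brain, stood at 2306 CPM per kb in input and 4000 CPM per kb in IP. It was followed in IP by the stearoyl-CoA desaturase *Scd2* at 155.7 CPM per kb, by *Npc2*, which hands cholesterol on inside lysosomes, at 151.7 and by *Abca1*, which exports cholesterol to lipid-poor apolipoproteins, at 117 CPM per kb. *Scap* at 72.5 and the LXR beta gene *Nr1h2* at 65.5 CPM per kb were above every enzyme of cholesterol synthesis. Among those enzymes *Hmgcs1*, which makes HMG-CoA, had 24.0 CPM per kb in IP and *Sqle*, the squalene epoxidase, 21.4 CPM per kb. *Abcg1*, *Idi1* and *Fdps* closed the order with 1.21, 0.858 and 0.181 CPM per kb in IP. The order depends on the transcript length used, which for *Npc2* was 3299 bases beside 447 coding bases. Which transcripts were expressed was not tested, so close ranks are uncertain.

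**Figure D1:**
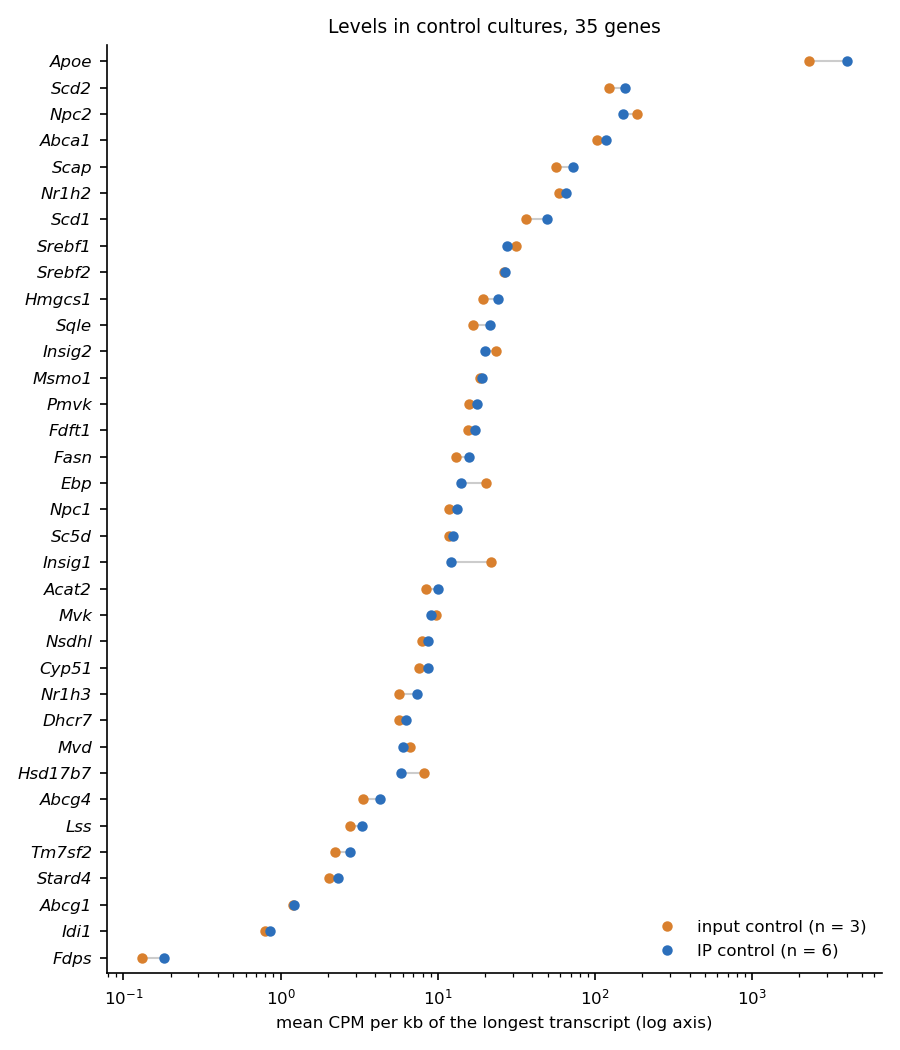
Mean CPM per kb of the longest transcript (log axis) of each of the 35 genes in input control libraries (orange, n = 3) and IP control libraries (blue, n = 6), ordered by the IP level. *Apoe* stands alone at the right at 4000 CPM per kb in IP, and *Fdps* lies at the left at 0.181 CPM per kb.

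The 3 lowest or hardest to count of these genes need care, because the authors counted read pairs that map to 1 place and belong to 1 gene. *Fdps*, the farnesyl diphosphate synthase, had 25 to 61 read pairs per library, and 85.9% of its coding bases lie in exons of the gene model *Gm43738* on the same strand, which itself had 0 read pairs in all libraries. *Idi1*, the isopentenyl diphosphate isomerase, had at most 270 read pairs in a library and shared 29.1% of its windows of 75 bases with other gene models, among them *Gm13502* and the antisense *Gm48574*, which overlaps it. *Acat2*, the cytosolic thiolase, shared 40.7% of such windows with *Acat3* and *Tcp1*. The levels of *Fdps*, *Idi1* and *Acat2* are therefore uncertain, and *Fdft1*, which shared 25.4% of its windows with *Ctsb* and *Gm6781*, is uncertain in part. For *Scap*, *Npc1* and *Lss*, counts of the annotated strand came to 123%, 113% and 111% of the counts used here, since pairs overlapping an antisense gene are left out when strand is not used.

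The first comparison asked which of these genes ethanol changed on the tagged ribosomes. In IP, 13 of the 35 genes passed the test, 6 higher and 7 lower with ethanol, and every change was small. With GC and length trends across genes removed, 17 passed, 6 higher and 11 lower, and the 4 gained, *Sqle*, *Lss*, *Srebf1* and *Fasn*, were all lower. The 18 enzymes of cholesterol synthesis leaned downward, with 6 lower, 1 higher and 11 that did not pass, and 14 of the 18 had a negative log2 fold change. The transport genes, the SREBP system and the fatty acid enzymes together gave 5 of the 6 increases. Among all genes tested 21.4% were called, with 11.9% higher and 9.48% lower. Of the 11066 genes that averaged 5 CPM or more 40.2% were called, with 22.9% higher and 17.3% lower. Of the 33 members at that level 36.4% were called, which is near that background, so that the number of calls is no result about these genes. The median log2 fold change of the 18 enzymes was -0.049, beside 0.0054 over all genes and 0.015 over those with at least 5 CPM.

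In the input fraction, 14 of the 35 genes passed, 5 higher and 9 lower. The background was 15.0% of all genes, with 7.21% higher and 7.78% lower. Of those with at least 5 CPM 29.8% were called, with 14.5% higher and 15.2% lower. Of the 33 members at that level 42.4% were called. The same 6 genes fell in both fractions, namely *Mvk*, *Fdft1*, *Msmo1*, *Nsdhl*, *Hsd17b7* and *Stard4*, and the same 4 rose in both, namely *Dhcr7*, *Scap*, *Npc1* and *Scd2*. In 1 fit over all 18 libraries only 7 of the 14 input calls were kept, and those of *Nsdhl*, *Scap* and *Scd2* were among the lost. The enzymes again divided into 6 lower, 1 higher and 11 that did not pass. Their median log2 fold change was -0.075, beside -0.00092 over all genes and 0.0039 over those with at least 5 CPM. No change of these 35 genes passed a test against a 1.2-fold change in either fraction. Summed markers of fibroblast and vascular cells also moved with ethanol, from 1510 to 1584 CPM in input control to 1114 to 1177 CPM in input ethanol and from 1732 to 1868 CPM to 1153 to 1355 CPM in IP. Most of these sums was *Acta2*, which averaged 1186 CPM in input control and 790 CPM in input ethanol libraries. In IP it averaged 1589 and 1069 CPM. *Acta2* and *Tagln* were called lower in both fractions, and the other 7 of 9 detected markers were not called. Neuronal markers summed to 136.8 to 144.5 CPM in IP control and to 124.1 to 131.6 CPM in IP ethanol, and to 111 to 114 CPM and 103 to 107.9 CPM in input. Most of these sums was *Stmn2*, which averaged 107.7 CPM in IP control and was lower in both fractions. Of the 7 detected neuronal markers no other was called in IP. In input *Slc17a7* was higher, at 0.258 CPM in control and 0.510 CPM in ethanol libraries, and the others were not called. Astrocyte markers summed to 2383 to 2461 CPM in IP control and to 2474 to 2562 CPM in IP ethanol (4 of 10 called higher, 1 lower), and to 1515 to 1579 CPM and 1559 to 1595 CPM in input, which overlapped (4 higher, 4 lower). The sums of microglial and oligodendrocyte lineage markers overlapped between treatments in both fractions, though single markers were called. Of 10 microglial markers, 1 was higher in each fraction, *Csf1r*, and none was lower. Of 10 oligodendrocyte lineage markers, *Pdgfra* and *Cspg4* were higher in both fractions and *Mbp* in input, and none was lower. The part of these markers in the results was not tested.

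**Figure D2:**
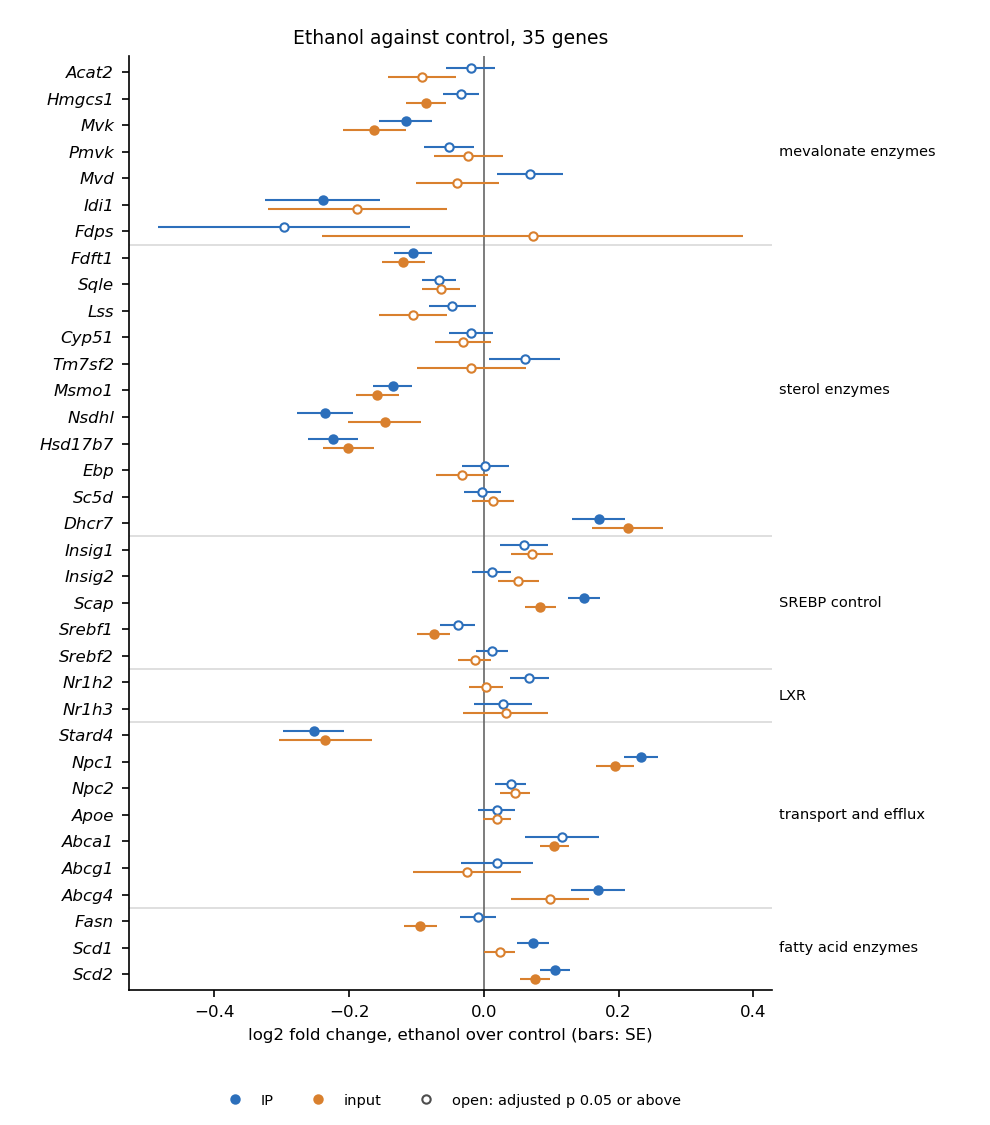
Log2 fold change of ethanol over control for each of the 35 genes in IP (blue, 6 against 6 libraries) and input (orange, 3 against 3), with bars for the SE and open points for an adjusted p of 0.05 or above. Most of the enzymes lie left of 0, *Dhcr7*, *Scap* and *Npc1* lie to the right in both fractions, and the wide bars belong to *Fdps* and *Idi1*, which had few read pairs.

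Among the mevalonate enzymes 2 of 7 fell in IP and 2 of 7 in input, and none rose. *Mvk*, the mevalonate kinase, had a lowest, median and highest level of 20.5, 21.3 and 23.0 CPM in IP control libraries. In IP ethanol libraries these were 17.8, 19.7 and 21.3 CPM. The groups overlapped, and the log2 fold change was -0.12 (SE 0.039, adjusted p = 0.0252). In input, *Mvk* was at 22.9, 23.3 and 23.6 CPM in control and at 20.5, 21.4 and 20.6 CPM in ethanol libraries, replicates 4 to 6 in order, with no overlap and a log2 difference of -0.16 (SE 0.047, adjusted p = 0.00587). In IP its call was lost without control replicate 1, control replicate 5 or ethanol replicate 1, with an adjusted p of up to 0.110. *Idi1* fell by 0.24 on the log2 scale in IP (SE 0.085, adjusted p = 0.0336), from 2.42 to 2.74 CPM to 1.99 to 2.44 CPM. That call was lost in 5 of the 12 fits that left out a library (control replicate 5 or 6, ethanol replicate 2, 4 or 6), with an adjusted p of up to 0.0857. *Hmgcs1* was at 67.8, 66.6 and 66.0 CPM in input control and at 62.6, 63.6 and 63.2 CPM in input ethanol libraries, again with no overlap. Its log2 fold change was -0.086 (SE 0.030, adjusted p = 0.0315), and the adjusted p rose to up to 0.138 when a library was left out, with control replicate 6 the only one without which the call stood. In IP the value for *Hmgcs1* was -0.034 (SE 0.027, adjusted p = 0.445). *Acat2*, *Pmvk*, *Mvd* and *Fdps* passed in neither fraction.

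Of the 11 sterol enzymes, 4 fell and 1 rose, the same 5 in both fractions. *Hsd17b7*, which reduces the sterol 3-ketone, ran from 25.5 over a median of 27.1 to 28.9 CPM in IP control libraries. In IP ethanol libraries it ran from 22.1 over 22.5 to 24.8 CPM. The groups did not overlap, and the mean fell from 27.0 ± 1.34 to 23.0 ± 1.12 CPM (SD, n = 6 each), a log2 difference of -0.22 (SE 0.037, adjusted p = 3.00e-06). In input it was at 39.4, 36.7 and 37.7 CPM in control and at 33.2, 33.0 and 33.0 CPM in ethanol libraries, which again left a gap, with -0.20 (SE 0.038, adjusted p = 4.63e-06). *Nsdhl*, which with its partners removes the methyl groups at carbon 4, ran from 17.4 over 19.0 to 20.1 CPM in IP control libraries. In IP ethanol libraries it ran from 15.0 over 15.6 to 17.3 CPM. Its groups were separate but nearly touched, and the log2 fold change was -0.24 (SE 0.042, adjusted p = 1.31e-05). In input it was at 17.3, 16.6 and 17.5 CPM in control and at 15.7, 15.0 and 15.8 CPM in ethanol libraries, with -0.15 (SE 0.054, adjusted p = 0.0447). The input call of *Nsdhl* stood only without control replicate 5 and was lost without any other library, with an adjusted p of up to 0.190, and it was not made by DESeq2.

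*Msmo1*, the methylsterol monooxygenase that starts the same demethylation, ran from 56.2 over 57.0 to 58.7 CPM in IP control and from 48.6 over 51.7 to 55.3 CPM in IP ethanol libraries. All 6 ethanol libraries lay below all 6 controls, with a log2 difference of -0.14 (SE 0.029, adjusted p = 0.000245). In input *Msmo1* was at 56.2, 56.4 and 53.1 CPM in control and at 50.0, 48.0 and 51.0 CPM in ethanol libraries, with -0.16 (SE 0.033, adjusted p = 3.15e-05). *Fdft1*, the squalene synthase, ran from 61.9 to 66.7 CPM in IP control and from 57.0 to 62.1 CPM in IP ethanol libraries, which overlapped slightly. It changed by -0.11 in IP (SE 0.028, adjusted p = 0.00285) and by -0.12 in input (SE 0.032, adjusted p = 0.00229), where control libraries held 57.3 to 57.7 and ethanol libraries 52.2 to 54.0 CPM. *Sqle* missed the threshold in IP at -0.066 (SE 0.025, adjusted p = 0.0521) and passed in 14 of 24 other fits, DESeq2 among them. *Lss*, *Cyp51*, *Tm7sf2*, *Ebp* and *Sc5d* passed in neither fraction (*Lss* passed in IP with GC and length trends removed), with log2 fold changes between -0.047 and 0.061 in IP and between -0.11 and 0.014 in input.

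*Dhcr7*, the reductase that makes cholesterol from 7-dehydrocholesterol in the last step of one branch, went the other way. It ran from 16.4 over 17.6 to 19.1 CPM in IP control and from 18.7 over 19.7 to 20.4 CPM in IP ethanol libraries. The groups overlapped in part, and *Dhcr7* rose by 0.17 on the log2 scale (SE 0.039, adjusted p = 0.000698). In input it was at 15.4, 15.9 and 16.6 CPM in control and at 17.8, 18.6 and 19.5 CPM in ethanol libraries, without overlap, a rise of 0.21 (SE 0.053, adjusted p = 0.000777). Of all 18 enzymes, *Dhcr7* was the only one called higher in either fraction.

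In IP the groups did not overlap for 3 members that rose and 4 that fell, beside 9.96% of all genes and 19.7% of those with at least 5 CPM. In input they did not overlap for 7 members that were higher and 11 that were lower, beside 27.1% and 43.3%, and with 3 libraries a group such separation is common.

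Promoter sequence is shown for the 4 enzymes that fell in both fractions and have a promoter in the table used, and for *Hmgcs1*. Of the 26 members with a promoter there, *Hmgcs1* alone matched the sterol regulatory element searched. The sequences are the 250 bases before the transcription start in RefSeq's GRCm38.p6, 5′ to 3′ on the strand of the gene, and the capitals mark matches on either strand to TCACNCCAC (the sterol regulatory element bound by SREBP), CCAAT (the NF-Y box) and GGGCGG (the Sp1 box), where a base may belong to more than 1 match.
*Hmgcs1* chr13:119690101-119690350 (+): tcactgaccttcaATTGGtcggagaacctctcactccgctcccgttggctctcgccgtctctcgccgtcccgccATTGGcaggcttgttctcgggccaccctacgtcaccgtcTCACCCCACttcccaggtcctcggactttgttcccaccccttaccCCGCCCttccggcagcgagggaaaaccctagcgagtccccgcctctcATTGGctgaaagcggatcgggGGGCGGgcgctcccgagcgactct
*Mvk* chr5:114444019-114444268 (+): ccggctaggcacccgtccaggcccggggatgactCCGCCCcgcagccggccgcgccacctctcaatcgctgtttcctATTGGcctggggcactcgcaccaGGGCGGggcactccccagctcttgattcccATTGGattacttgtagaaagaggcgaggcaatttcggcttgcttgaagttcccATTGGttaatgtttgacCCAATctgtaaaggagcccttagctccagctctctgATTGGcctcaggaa
*Msmo1* chr8:64733579-64733828 (-): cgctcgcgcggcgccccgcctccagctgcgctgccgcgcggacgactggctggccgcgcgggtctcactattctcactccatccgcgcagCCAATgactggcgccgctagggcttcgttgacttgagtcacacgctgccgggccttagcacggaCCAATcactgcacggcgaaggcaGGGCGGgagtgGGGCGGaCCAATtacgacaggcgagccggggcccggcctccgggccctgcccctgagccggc
*Nsdhl* chrX:72918271-72918520 (+): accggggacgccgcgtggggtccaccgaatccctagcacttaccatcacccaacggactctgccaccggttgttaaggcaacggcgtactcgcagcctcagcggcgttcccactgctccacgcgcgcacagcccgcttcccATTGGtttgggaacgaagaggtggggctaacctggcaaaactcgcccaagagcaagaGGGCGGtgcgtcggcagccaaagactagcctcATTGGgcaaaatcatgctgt
*Hsd17b7* chr1:169969206-169969455 (-): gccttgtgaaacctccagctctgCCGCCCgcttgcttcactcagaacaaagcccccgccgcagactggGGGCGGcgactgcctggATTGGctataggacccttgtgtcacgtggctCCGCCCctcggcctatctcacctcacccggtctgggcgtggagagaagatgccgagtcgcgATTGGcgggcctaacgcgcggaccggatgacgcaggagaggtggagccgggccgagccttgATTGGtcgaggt
All 5 hold several CCAAT boxes and at least 1 Sp1 box, and in *Mvk*, *Nsdhl* and *Hsd17b7* the nearest CCAAT box ends 9, 15 and 7 bases before the start. The motifs were counted over windows of 300 bases, 250 before and 50 after each start, for the 26 of 35 members that the table lists. *Fdps*, *Fdft1*, *Sqle*, *Stard4*, *Npc1*, *Abcg1*, *Abcg4*, *Scd1* and *Scd2* were not in it. A CCAAT box was found in 20 of the 26 members (76.9%), beside 41.1% of all 27025 genes of the table and 43.2% of those that averaged 5 CPM or more. An Sp1 box was found in 21 (80.8%), beside 38.2% of all genes and 71.7% of those with at least 5 CPM. The sterol regulatory element, searched with no mismatch allowed, was found in 1 member and in 1.44% of all genes. Elements that differ by a base were not searched, so the search does not show that the other members lack one. The repeat of AGGTCA with 4 bases between, which LXR binds, searched on both strands, was found in no member and in 4 of all genes, and with 1 mismatch allowed in no member and in 0.278% of all genes. LXR elements that differ by more than 1 base were not searched, so this search does not show that any member lacks one. None of these matches is a measured binding site. *Dhcr7*, which rose, also held CCAAT and Sp1 boxes, as did *Cyp51* and *Idi1*.

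Of the 5 genes of the SREBP system, *Scap* rose in both fractions and *Srebf1* fell in input. *Scap*, the escort of the SREBP precursors, ran from 301 over 306 to 315 CPM in IP control and from 318 over 340 to 349 CPM in IP ethanol libraries. The groups were separate, with a log2 difference of 0.15 (SE 0.024, adjusted p = 1.44e-06). In input *Scap* was at 236.5, 242 and 240 CPM in control and at 258, 259 and 247 CPM in ethanol libraries, with 0.084 (SE 0.023, adjusted p = 0.00319). *Srebf1*, which encodes the SREBP that favours fatty acid genes, was at 128, 139 and 140 CPM in input control and at 131, 129 and 126 CPM in input ethanol libraries. The groups overlapped, and the fall of 0.075 on the log2 scale (SE 0.025, adjusted p = 0.0195) was not called by DESeq2 nor without control replicate 5, control replicate 6 or ethanol replicate 6, with an adjusted p of up to 0.243. In IP *Srebf1* gave -0.039 (SE 0.026, adjusted p = 0.344), and it was called there at -0.095 (SE 0.022, adjusted p = 0.000463) with GC and length trends removed. *Srebf2*, which encodes the SREBP that favours cholesterol genes, changed by 0.012 in IP (SE 0.024, adjusted p = 0.814) and by -0.014 in input (SE 0.025, adjusted p = 0.816). *Insig1* and *Insig2*, which retain SCAP, had values of 0.060 and 0.011 in IP and of 0.071 and 0.051 in input, none past the threshold, though *Insig1* passed in input without ethanol replicate 4 (lowest adjusted p 0.00926). The LXR genes *Nr1h2* and *Nr1h3* had values of 0.067 and 0.028 in IP and of 0.0033 and 0.032 in input, and neither passed, though *Nr1h2* passed in IP without ethanol replicate 1 or 5 (lowest adjusted p 0.00466).

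The transport genes held the largest increase and the largest decrease of the 35 among those that passed in IP. *Npc1*, the membrane protein that lets cholesterol leave the lysosome, ran from 74.1 over 76.0 to 77.8 CPM in IP control and from 85.5 over 88.6 to 91.9 CPM in IP ethanol libraries. Every ethanol library lay above every control library, and the mean rose from 75.9 ± 1.44 to 88.7 ± 2.09 CPM (SD, n = 6 each), a log2 difference of 0.23 (SE 0.025, adjusted p = 1.00e-10). In input it was at 65.5, 69.0 and 67.9 CPM in control and at 78.4, 76.8 and 77.2 CPM in ethanol libraries, with 0.19 (SE 0.029, adjusted p = 8.01e-10). *Npc2*, its soluble partner, was not called, with 0.040 in IP (SE 0.023, adjusted p = 0.245) and 0.047 in input (SE 0.022, adjusted p = 0.162). *Stard4*, a soluble protein that carries sterols between membranes, ran from 10.9 over 11.9 to 12.4 CPM in IP control and from 9.61 over 9.83 to 10.2 CPM in IP ethanol libraries. It was lower in all ethanol libraries, with a log2 difference of -0.25 (SE 0.046, adjusted p = 1.60e-05). In input *Stard4* was at 10.3, 10.5 and 10.1 CPM in control and at 9.22, 8.54 and 8.58 CPM in ethanol libraries, with -0.24 (SE 0.069, adjusted p = 0.00685).

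Of the efflux genes, *Abca1* was called in input and *Abcg4* in IP. *Abca1* was at 1034, 1046 and 1084 CPM in input control and at 1080, 1164 and 1167 CPM in input ethanol libraries, which overlapped by 1 library, with 0.10 (SE 0.022, adjusted p = 3.70e-05). In IP its estimate was about as large at 0.12 but its spread was wider (SE 0.055, adjusted p = 0.184), with 1117 to 1269 CPM in control and 1168 to 1458 CPM in ethanol libraries, and it was called in IP replicates 4 to 6 alone (0.16, adjusted p = 6.03e-07). *Abcg4*, a sterol exporter of brain cells, ran from 16.5 over 16.9 to 18.4 CPM in IP control and from 17.6 over 19.2 to 20.4 CPM in IP ethanol libraries, a rise of 0.17 (SE 0.041, adjusted p = 0.00109). In input *Abcg4* gave 0.098 (SE 0.058, adjusted p = 0.307). *Apoe* did not differ beyond its spread, at 5631 ± 111 CPM in IP control and 5677 ± 328 CPM in IP ethanol libraries (SD, n = 6 each), with an interval of the log2 fold change from -0.034 to 0.071. *Abcg1* was at about 7 CPM in all groups and was not called.

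The fatty acid enzymes gave mixed directions. *Scd2* ran from 824 over 849 to 880 CPM in IP control and from 888 over 902 to 952 CPM in IP ethanol libraries, with no overlap and a log2 difference of 0.11 (SE 0.023, adjusted p = 0.000279). In input *Scd2* changed by 0.076 (SE 0.022, adjusted p = 0.00667), with 663 to 683 CPM in control and 701 to 728 CPM in ethanol libraries, a call that was lost without control replicate 4 or ethanol replicate 5 (adjusted p of up to 0.0926). *Scd1*, its close relative, changed by 0.072 in IP (SE 0.024, adjusted p = 0.0203), and this call was lost in 5 of 12 fits that left out a library (control replicate 1, 3 or 4, ethanol replicate 1 or 3), with an adjusted p of up to 0.121. *Fasn*, the fatty acid synthase, was at 127, 134 and 134 CPM in input control and at 124, 125 and 121 CPM in input ethanol libraries. It fell by 0.094 there (SE 0.025, adjusted p = 0.00192), and in IP the value was -0.0090 (SE 0.026, adjusted p = 0.872). With GC and length trends removed, *Fasn* was called in IP too, at -0.092 (SE 0.020, adjusted p = 0.000228).

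**Figure D3:**
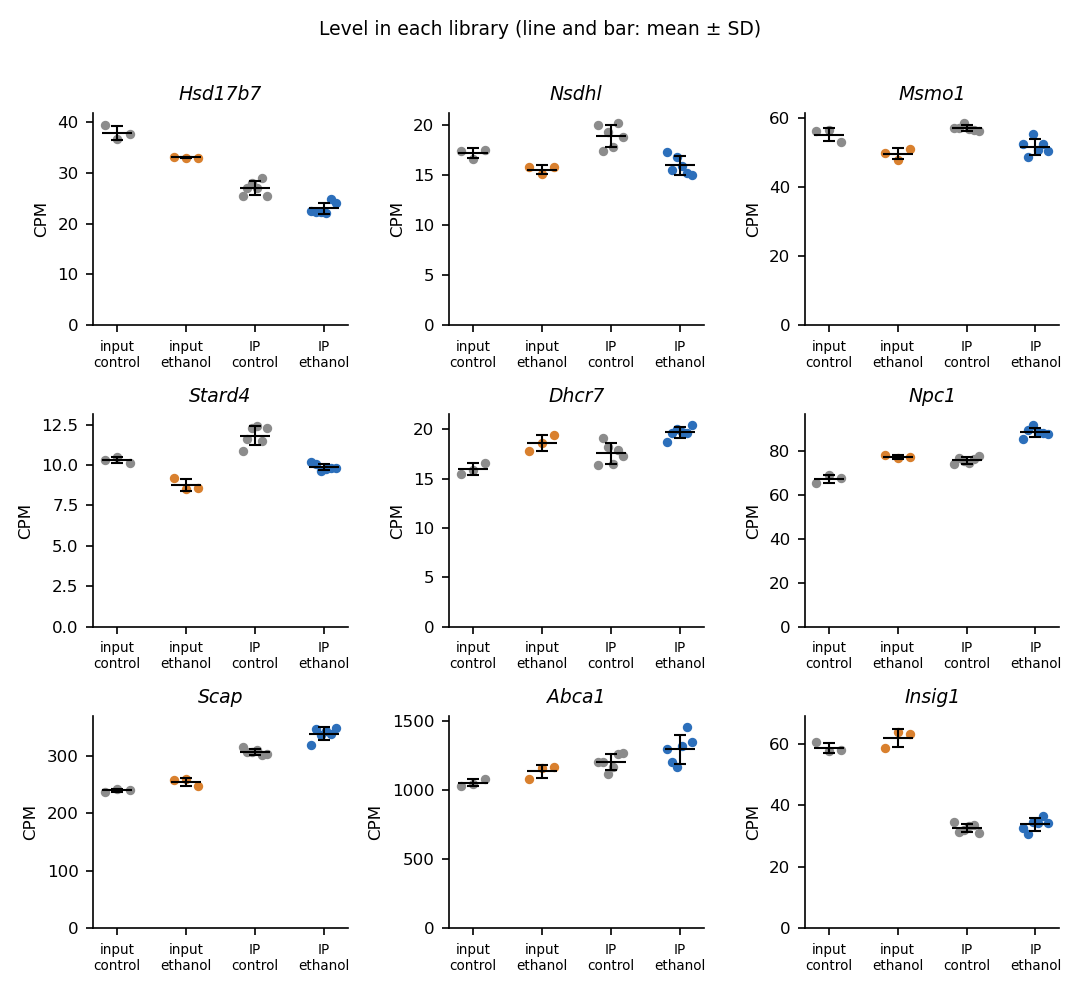
CPM in each library for 9 of the genes, by fraction and treatment (controls gray, input ethanol orange, IP ethanol blue), with the line and bar for mean ± SD (input n = 3, IP n = 6 per group) and axes that start at 0. *Hsd17b7*, *Nsdhl*, *Msmo1* and *Stard4* are lower and *Npc1* and *Scap* higher in all ethanol libraries of a fraction, while *Insig1* differs mainly between the fractions.

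The ethanol effect itself was then compared between the fractions. The difference was called for 0 of the 35 genes and for 0 of all genes (0% of 24495) in edgeR, with 0 members and 5.96% of all genes at an unadjusted p under 0.05, and DESeq2 called 0 members and 4 genes in all. Blocking by dish, over the 12 libraries whose dish gave both fractions, 0.416% of all genes and 0 members were called. Thus the 7 genes called in 1 fraction alone, *Idi1*, *Scd1* and *Abcg4* in IP and *Hmgcs1*, *Srebf1*, *Abca1* and *Fasn* in input, were not shown to respond differently in the fractions. The lowest unadjusted p among the members was that of *Fasn* (difference of 0.074 on the log2 scale, SE 0.043, interval -0.010 to 0.16). For *Npc1* the difference was 0.027 (interval -0.054 to 0.11), for *Hsd17b7* -0.034 (interval -0.15 to 0.079) and for *Nsdhl* -0.099 (interval -0.24 to 0.039).

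The last comparison asked how these mRNAs were distributed between the tagged ribosomes and the whole lysate. Relative to input, 22 of the 35 genes were higher in IP, 8 were lower and 5 did not pass, beside 51.0% of all genes called (25.2% higher, 25.8% lower) and 78.6% of those with at least 5 CPM (46.6% higher, 32.0% lower). Of the 33 members with at least 5 CPM 90.9% were called. The median log2 fold change of the 35 genes was 0.17, beside -0.028 over all genes and 0.048 over those with at least 5 CPM. Groups did not overlap for 15 members higher and 6 lower in IP, beside 25.0% of all genes and 45.2% of those with at least 5 CPM. Microglial markers were lower in IP (9 of 10 called), as were several fibroblast and vascular markers (5 lower and 3 higher of 9). Of 10 astrocyte markers 9 were higher and 1 lower, with a median of 0.61. Of 7 detected neuronal markers 4 were higher and 1 lower, and of 10 oligodendrocyte lineage markers 4 were higher and 4 lower. The part of all these markers in the differences was not tested. With total counts in place of TMM factors, the median of all genes was -0.078, and *Nsdhl*, *Sc5d* and *Dhcr7* lost their calls.

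**Figure D4:**
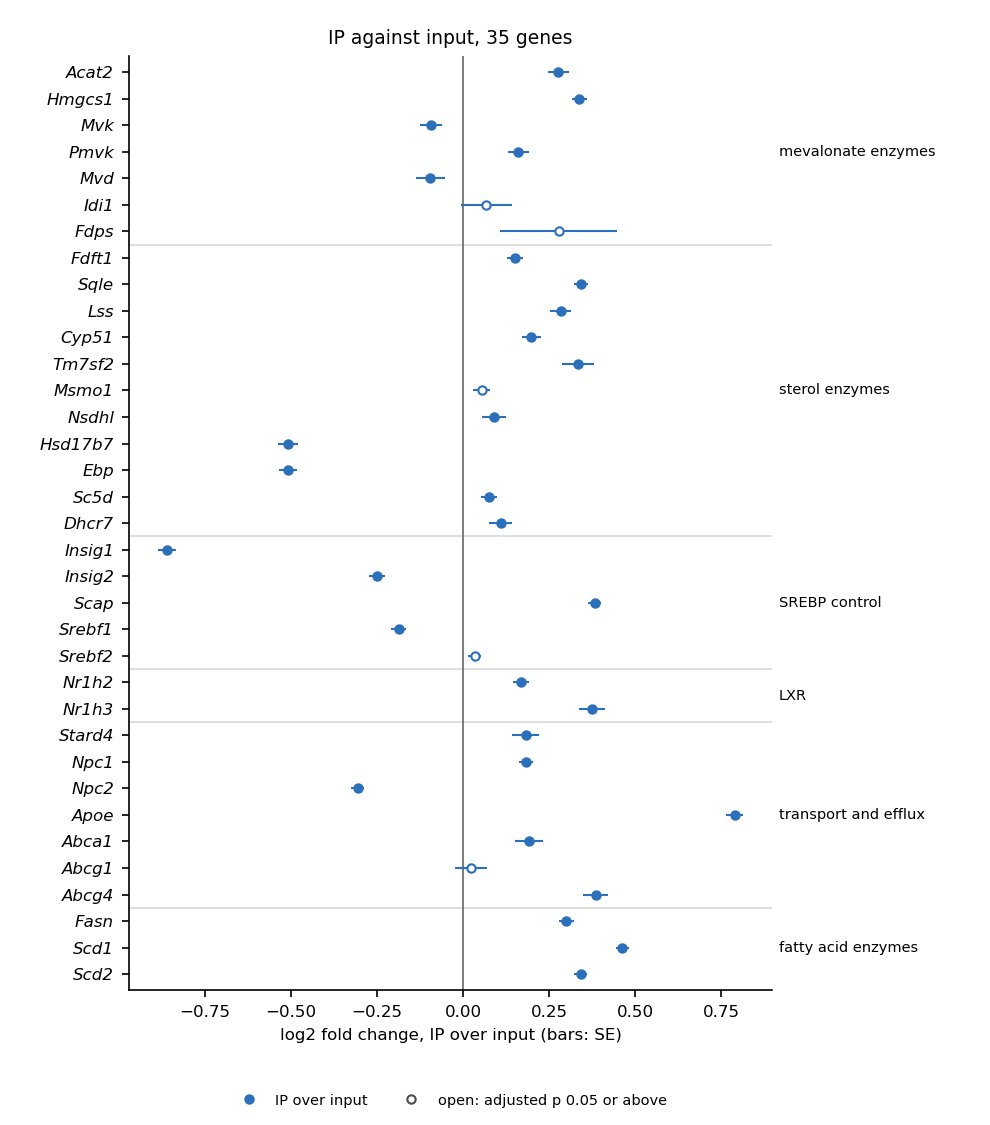
Log2 fold change of IP over input for each of the 35 genes (12 IP against 6 input libraries), with bars for the SE and open points for an adjusted p of 0.05 or above. *Apoe* lies farthest right at 0.79 and *Insig1* farthest left at -0.86, and the enzymes lie mostly to the right, with *Hsd17b7* and *Ebp* far to the left and *Mvk* and *Mvd* just left of 0.

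The enzymes of cholesterol synthesis were mostly higher in IP, with 11 higher, 4 lower and 3 that did not pass. *Sqle* averaged 73.6 ± 2.05 CPM in input (SD, n = 6) and 93.3 ± 3.26 CPM in IP (SD, n = 12), a log2 difference of 0.34 (SE 0.021, adjusted p = 2.72e-24). *Hmgcs1* averaged 65.0 ± 2.12 and 82.1 ± 2.90 CPM, also 0.34 (SE 0.022, adjusted p = 1.59e-22). Both left no overlap between the fractions. *Tm7sf2*, *Lss*, *Acat2*, *Cyp51*, *Pmvk* and *Fdft1* were higher by 0.15 to 0.33 on the log2 scale, and *Dhcr7*, *Nsdhl* and *Sc5d* by 0.075 to 0.11. Against these, *Hsd17b7* averaged 35.5 ± 2.80 CPM in input and 25.0 ± 2.39 CPM in IP, a log2 difference of -0.51 (SE 0.029, adjusted p = 5.96e-26). *Ebp*, the sterol isomerase, was lower by the same amount, at 34.95 ± 0.618 and 24.6 ± 0.716 CPM, -0.51 (SE 0.027, adjusted p = 9.58e-28). *Mvk* and *Mvd* were lower by 0.094 and 0.095, and the call of *Mvd* (adjusted p = 0.0476) was lost in 9 of 18 fits that left out a library, with up to 0.187, and when dish was a block. The call of *Nsdhl* (adjusted p = 0.0274) was lost in 6 of the 18, with up to 0.109, and also when dish was a block. For *Mvd* the libraries were input control replicates 4 and 5, IP control replicates 1, 3, 5 and 6 and IP ethanol replicates 1, 4 and 5, and for *Nsdhl* input control replicates 4 and 5, input ethanol replicate 5, IP control replicates 1 and 5 and IP ethanol replicate 1. *Msmo1*, *Idi1* and *Fdps* did not pass, and *Msmo1* (0.054, adjusted p = 0.0536) passed in 5 of those 18 fits, without input control replicate 4 or 5, input ethanol replicate 6 or IP ethanol replicate 2 or 6.

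The SREBP system was divided. *Insig1* had the lowest value of the 35, with 60.2 ± 2.69 CPM in input (SD, n = 6) and 33.1 ± 1.78 CPM in IP (SD, n = 12), a log2 difference of -0.86 (SE 0.027, adjusted p = 2.65e-39). *Insig2* was lower by 0.25 (SE 0.023, adjusted p = 1.95e-15) and *Srebf1* by 0.19 (SE 0.022, adjusted p = 6.52e-12). *Scap*, whose protein the INSIG proteins bind, was higher in IP instead, with 247 ± 9.44 and 322 ± 18.4 CPM and a log2 difference of 0.38 (SE 0.019, adjusted p = 1.58e-28). *Srebf2* did not pass at 0.034 (SE 0.019, adjusted p = 0.145). Both LXR genes were higher in IP, *Nr1h3* by 0.37 (SE 0.038, adjusted p = 8.05e-14) and *Nr1h2* by 0.17 (SE 0.023, adjusted p = 1.13e-08).

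Of the transport genes 5 were higher in IP, 1 was lower and 1 did not pass. *Apoe* had 3273 ± 92.8 CPM in input and 5654 ± 235 CPM in IP, a log2 difference of 0.79 (SE 0.024, adjusted p = 1.14e-23). *Abcg4* was higher by 0.39 (SE 0.037, adjusted p = 4.50e-15), and *Abca1*, *Stard4* and *Npc1* by 0.18 to 0.19. The lysosomal partners thus differed in sign, since *Npc2* was lower by 0.31 (SE 0.018, adjusted p = 6.88e-25), with 626 ± 15.0 CPM in input and 506 ± 14.0 CPM in IP. The fatty acid enzymes were all higher, *Scd1* by 0.46 (SE 0.019, adjusted p = 2.08e-33), *Scd2* by 0.34 (SE 0.018, adjusted p = 3.48e-27) and *Fasn* by 0.30 (SE 0.022, adjusted p = 3.11e-19).

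Other genes of the same pathways, listed from general knowledge, were set beside the members. Of the 8 detected of 9 further sterol genes, 2 rose with ethanol in IP and 2 in input. Of all genes tested 11.9% rose in IP and 7.21% in input, and of those with at least 5 CPM 22.9% and 14.5%. *Cyp46a1*, which makes the sterol that leaves the brain, and *Soat1*, which stores cholesterol as esters, rose in IP by 0.11 and 0.079 (adjusted p = 0.0142 and 0.0407), and the call of *Soat1* was lost in 17 of 24 other fits.

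Of 15 further uptake and release genes, 8 rose in IP and 6 in input. Of all genes with at least 5 CPM, a level that 14 of the 15 reached, 22.9% rose in IP and 14.5% in input. Among the genes that rose in IP were *Lpl*, the lipoprotein lipase, by 0.30 (SE 0.046, adjusted p = 7.88e-07), *Abca7*, a relative of *Abca1*, by 0.28 (SE 0.038, adjusted p = 4.16e-08) and *Scarb1*, the HDL receptor, by 0.19 (SE 0.030, adjusted p = 1.15e-06). Of 12 further fatty acid and lipid genes, 2 rose and 1 fell in IP, and 2 rose and 3 fell in input. At 5 CPM or more, which 11 of the 12 reached, 22.9% of genes rose and 17.3% fell in IP. In input 14.5% rose and 15.2% fell. In IP *Gpam*, which starts glycerolipid synthesis, rose by 0.21 (SE 0.034, adjusted p = 2.74e-06), *Lpin1* rose by 0.13 (SE 0.026, adjusted p = 0.00012) and the elongase *Elovl6* fell by 0.17 (SE 0.045, adjusted p = 0.00378).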

How the data were processed

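RNA of 18 libraries of cortical astrocyte cultures was sequenced, with 12 IP and 6 input libraries. The deposited values are raw read pair counts per gene from STAR, which the authors ran on GRCm38 after trimming with Trimmomatic, with no use of strand and no normalization. Pairs mapping to several places (3.60% on average) or to overlapping genes (5.50%) were not counted.

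Groups came from the labels. edgeR 4.0.16 in R 4.3.3 (TMM factors, quasi-likelihood test) was run on the 24495 genes that reached 10 read pairs in total, with Benjamini-Hochberg adjustment over all of them and a threshold of 0.05. Ethanol was tested within the 12 IP and within the 6 input libraries, IP vs. input over the 18 libraries with a term for treatment, and the difference of the ethanol effects as an interaction. The SE is the absolute log2 fold change divided by the square root of F, and intervals are 1.96 SE to either side (95%). Levels per kb used the longest GENCODE M21 transcript. The scripts were tested on simulated data. Alternatives were DESeq2 1.42.0, total counts, other filters, counts of the annotated strand, a test against a 1.2-fold change, removal of GC and length trends, replicate blocks and libraries left out in turn. Input and IP libraries of the same treatment and number came from the same dish, and their deviations from the group means correlated at 0.034 to 0.21 over 6 dishes, across genes.

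The 35 genes, the other gene lists and the markers were chosen with earlier results of these data known. Every member could be named, with full statistics for members past the threshold, and of each other list the 4 genes with the largest change in IP among those called. Some genes of these lists are not reported here, so only the genes that rose are counted for the further sterol and the uptake and release genes. Marker genes were named for their level or their change, in part after their values were seen. Of 9 further sterol genes, *Erg28* was not found by its symbol. Promoters were taken from RefSeq, matched by symbol.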

Additional observations from a re-analysis of the deposited data

Results flagged for a closer look

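Of 70 groups of 6 IP libraries (35 genes, 2 treatments), 2 had a library far from the others, with a gap above the 95% critical value of Dixon's test, and chance alone gives about 1 in 20, or 3.5 groups. *Insig2* had 58.9 CPM in IP ethanol replicate 1, while the other 5 libraries lay between 52.6 and 53.4 CPM. *Abcg1* had 7.71 CPM in IP ethanol replicate 2, while the others lay between 6.80 and 7.13 CPM. Neither gene passed the ethanol comparison in IP with or without that library.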

How the results depend on the processing

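With a library left out in turn, 11 to 14 of the 35 genes were called for ethanol in IP, 11 to 13 in input, 28 to 31 for IP vs. input and 0 to 0 for the difference between fractions. Against a 1.2-fold change, the counts were 0 in IP, 0 in input and 12 for IP vs. input. In IP the count was 8 in replicates 1 to 3 alone, where only 3 libraries a group remain, and 20 with a replicate block and GC and length trends removed. Under that last setting the called value of *Srebf2* was -0.050, the reverse of 0.012, and the cause was not tested. In input it was 7 in 1 fit over all 18 libraries, beside 8.88% of all genes, and the cause was not tested. The input calls lost in that fit were those of *Hmgcs1*, *Nsdhl*, *Scap*, *Srebf1*, *Abca1*, *Fasn* and *Scd2*. The members' summed level in IP control was 9946 CPM with total counts and 10079 CPM with TMM. All other alternatives stayed within 1.5 times of the counts above, with IP vs. input between 24 and 30.

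Control and ethanol dishes share only a replicate number. With that number as a block, 16 genes were called in IP and 14 in input. The 3 gained in IP were *Sqle*, *Abca1* (0.11, SE 0.020, adjusted p = 1.29e-07) and *Nr1h2* (0.066, SE 0.024, adjusted p = 0.0327), and deviations of same-numbered control and ethanol libraries correlated at -0.15 to 0.40 in IP and 0.037 to 0.074 in input, across genes. With the dish as a block, 28 genes were called for IP vs. input and 0 for the difference between fractions. A fit of the difference over the 12 libraries of dishes with both fractions, with no block, was added after the data were seen and called 0 members. Few counted read pairs limit *Fdps* and *Idi1*, whose 25 to 270 read pairs per library leave SEs of 0.085 to 0.31 on the log2 scale for ethanol.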
